A study of Mus musculus with 18 samples.

Results

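T cells and natural killer (NK) cells were followed in mouse liver through 32 genes that mark these lymphocytes or carry out their work. The genes were chosen by symbol from the deposited table of 35441 genes, and the rule uses no measured value. They fall into 8 roles: T cell receptor and CD3 chains (4 genes), coreceptors (3), other T cell surface receptors (4), proximal signalling proteins (3), checkpoint and costimulatory receptors (5), transcription factors (4), effector molecules (6) and NK receptors (3). All 32 genes were listed in the table. Of these, 26 had more than 100 reads summed over the 18 mice and were tested, together with 14507 other genes. The remaining 6 (Ctla4, Pdcd1, Tigit, Foxp3, Ifng and Ncr1) had too few reads for the test and are given as reads only.

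Liver poly(A) RNA was sequenced from 18 male mice, 3 in each of 6 groups. WT mice without treatment were compared with untreated Lipa-/- mice and with Lipa-/- mice that had received rAAV8.hAAT.LIPA, at 12- and 34-weeks post-injection, which the labels give as 3 and 8 months. Lipa encodes lysosomal acid lipase, and Lipa-/- mice lack exon 4 of the gene in every tissue, since the deletion was made with a Cre recombinase under the CMV promoter, on a C57/BL6N background. The vector carries the human LIPA cDNA under the hAAT promoter, which is active in hepatocytes, and was given into the tail vein at 10 to 12 weeks of age. The treated mice therefore keep the deletion in all cells, immune cells included. All livers of 34-weeks carry a single prefix in their sample labels and those of 12-weeks a different one, apart from Lipa-/- mouse 5 of 12-weeks, which has one of its own. The labels do not say what the prefix stands for. Time and label prefix thus cannot be told apart. Mice of the same group are separate animals. The study states that a single Lipa-/- mouse was still living at 34-weeks, and that the rest had been killed at set endpoints. The labels do not say which Lipa-/- livers of 34-weeks came from such mice. This group may therefore not be matched in time to the WT and treated mice of 34-weeks.

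T cells recognise peptides through a receptor whose signal leaves the cell surface through the CD3 chains, with CD4 or CD8 as coreceptor. Lck phosphorylates the CD3 chains, Zap70 docks on them, and Lat gathers the downstream signalling complex. CD8 T cells and NK cells kill target cells with perforin and granzymes. The mouse liver holds resident T and NK cells beside Kupffer cells, and in fatty liver disease cytotoxic lymphocytes gather in the tissue.

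Each liver gave between 17527848 and 25833134 reads in genes, of which the 32 genes together took 453 to 1836. Levels are given as CPM, the reads of a gene relative to a library size scaled by TMM factors (0.587 to 1.69, from edgeR). A count of 0 allows up to 3 reads, which was 0.0946 to 0.291 CPM in these libraries and reflects counting error alone. A gene was called higher or lower where its change exceeded 1 on the log2 scale and its adjusted p was below 0.05 in edgeR's quasi-likelihood test. The labels were checked with the deleted gene. Lipa had 202 to 267 and 283 to 323 CPM in WT mice of 12- and 34-weeks, against 16.7 to 37.0 CPM in the 12 Lipa-/- livers. The human transgene had 523 to 2746 CPM in treated mice and 0 in all 6 untreated Lipa-/- mice. Among WT mice, it reached at most 0.906 CPM (23 reads), in mouse 2 of 34-weeks. The tissue label was checked with 9 hepatocyte markers, whose summed level was 79800 to 97858 CPM in WT, 46922 to 65485 CPM in Lipa-/- and 72561 to 125322 CPM in treated mice at 12-weeks, and 70181 to 92892, 28687 to 55584 and 64848 to 91631 CPM at 34-weeks. The liver of treated mouse 12 at 34-weeks stood apart from the other livers of its group. Its 10 neutrophil markers summed to 807 CPM, against 2.84 and 4.76 CPM in the other 2 mice, and it was the highest of its group in 17 of the 26 tested T and NK cell genes (65.4%, against 38.2% of all genes tested). WT mouse 2 of 34-weeks was the highest of its group in 21 of the 26 (80.8%, against 31.1% of all genes), and Lipa-/- mouse 6 of 34-weeks the lowest in 20 (76.9%, against 34.2%).

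In Lipa-/- mice at 12-weeks, 16 of the 26 tested genes rose and 2 fell against WT mice. Among all genes, 20.2% were called higher and 9.06% lower in this comparison. The genes that rose were Cd3e, Cd3g, Cd247, Cd8a, Cd8b1, Cd2, Cd5, Cd28, Lck, Lat, Tbx21, Eomes, Gzmb, Gzmk, Nkg7 and Klrd1, and those that fell were Zap70 and Lag3. At 34-weeks, 13 rose and 2 fell, against 20.5% higher and 15.7% lower among all genes. The 10 genes Cd3e, Cd8a, Cd8b1, Cd28, Lck, Lat, Gzmb, Gzmk, Nkg7 and Klrd1 rose at both time points, Cd4, Cd6 and Prf1 were called higher at 34-weeks, and Zap70 and Lag3 fell again. The median log2 fold change of the 26 genes was 1.78 at 12-weeks and 1.31 at 34-weeks, where the medians over all genes were 0.02 and -0.03. With Eomes and Gzmk, which had no read in WT mice of 12-weeks, set at their lower bounds, the first median was 1.73. In whole liver, a higher share of lymphocytes and more of these transcripts per lymphocyte cannot be told apart. The count at 34-weeks was 6 (5 higher) without Lipa-/- mouse 4, 8 (7 higher) without Lipa-/- mouse 5, 8 (6 higher) without WT mouse 3 and 9 (8 higher) without WT mouse 1. Among all genes, 18.2%, 19.3%, 18.9% and 18.9% were then called higher, and 13.6%, 14.6%, 16.1% and 13.5% lower. At 12-weeks, the count ranged from 13 to 17 with each mouse left out, where 26.3% to 29% of all genes were called. It was 17 without Lipa-/- mouse 5 of 12-weeks, the one with its own label prefix.

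In treated mice at 12-weeks, 14 of the 26 genes rose and 0 fell against WT mice, where 13.6% of all genes were called higher and 12% lower. Those that rose were Cd3d, Cd3g, Cd247, Cd8a, Cd8b1, Cd2, Lck, Zap70, Lat, Gzma, Gzmb, Gzmk, Klrd1 and Klrk1. No gene had a lower value with an unadjusted p under 0.05, 18 had a higher one, and DESeq2 called 13 higher and 0 lower. The median log2 fold change was 1.77, and 1.75 with Gzmk at its bound and without Eomes, which lay at or under the floor in both groups. The count was 7 when WT mouse 3 was left out and 9 when treated mouse 10 was left out, and the share of all genes called higher was then 5.39% and 4.57%. At 34-weeks, Cd8a was the single gene called higher (0.22% of all genes were called in this comparison, and 0.0413% to 0.213% with a mouse left out), although 23 of the 26 log2 fold changes were above 0, their median was 1.17 and 10 had an unadjusted p under 0.05. DESeq2 called 2, and the call of Cd8a was lost without any one of the 3 WT mice or treated mouse 12.

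Compared directly with Lipa-/- mice, treated mice had 3 genes higher (Zap70, Lag3 and Gzma) and 2 lower (Cd28 and Tox) at 12-weeks, against 16.2% and 25.3% of all genes. At 34-weeks, 2 were higher (Zap70 and Gzma) and 2 lower (Cd28 and Cd8b1), against 12.8% and 18.6% of all genes. The medians were -0.13 and -0.31, beside -0.19 and 0.03 over all genes. The balance of directions depended on the scaling. With total counts in place of TMM factors, 2 were higher and 9 lower at 12-weeks, and 1 higher and 7 lower at 34-weeks. Among all genes, 4.67% were then called higher and 47.7% lower at 12-weeks, and 6.38% and 28% at 34-weeks. The median over all genes moved to -1.05 and -0.51. Without treated mouse 12, 1 was higher and 5 were lower at 34-weeks, against 12.5% and 19.4% of all genes. Each group entered more than one of these comparisons, so they are not independent of each other. Without Zap70, which alone held up to 41.9 CPM in WT mice, the other 31 genes summed to 9.89 to 18.9 CPM in WT, 30.4 to 44.4 CPM in Lipa-/- and 32.9 to 60.0 CPM in treated mice at 12-weeks. At 34-weeks, the sums were 11.4 to 21.3, 27.3 to 45.4 and 24.1 to 41.1 CPM. At both time points, each Lipa-/- and each treated liver lay above every WT liver in this sum. With Zap70 included, the sums at 12-weeks were 23.7 to 35.08 CPM in WT and 35.03 to 49.1 CPM in Lipa-/- mice. Treated mice had 69.5 to 120 CPM. At 34-weeks, WT mice had 24.0 to 58.1, Lipa-/- mice 29.4 to 46.4 and treated mice 32.9 to 71.4 CPM. Lipa-/- mice then overlapped WT mice at both time points, and treated mice overlapped WT mice at 34-weeks alone.

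**Figure D1:**
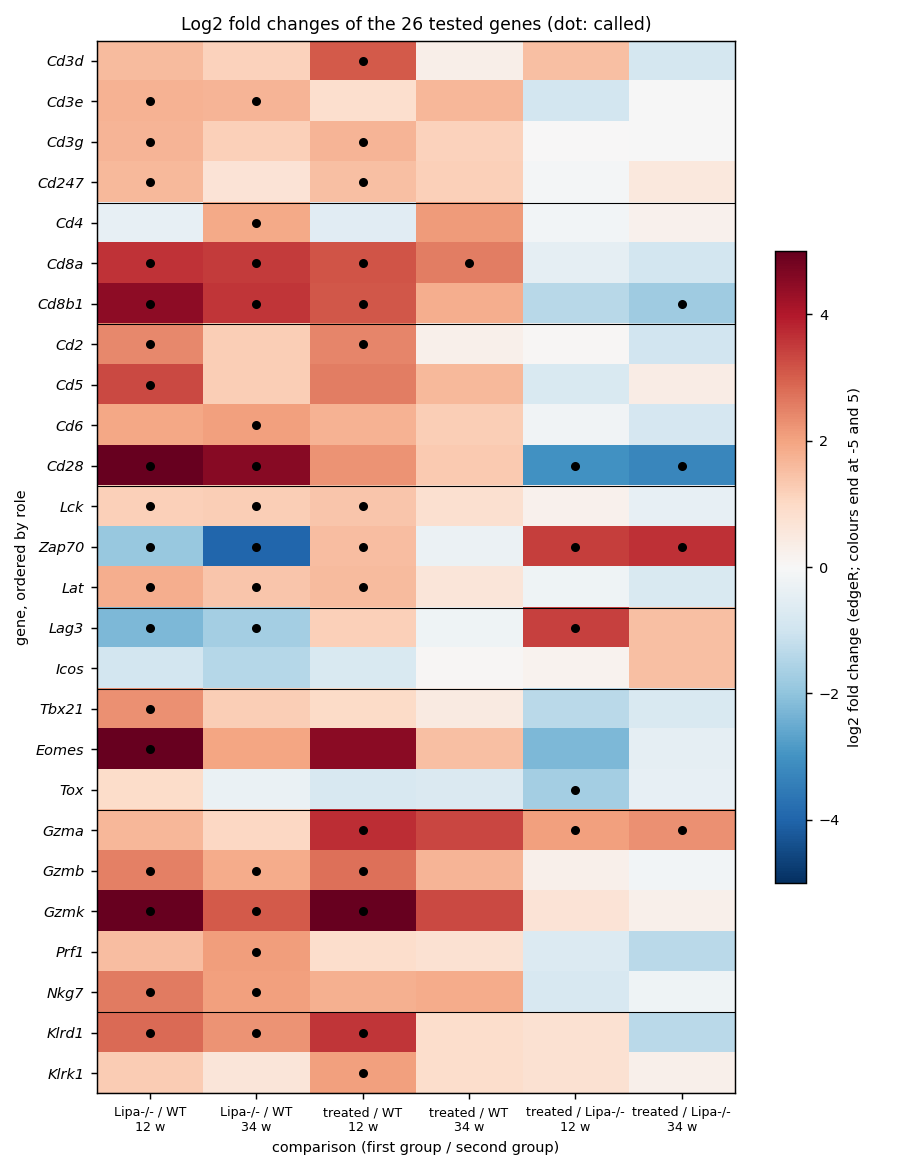
Log2 fold changes (edgeR) of the 26 tested T cell and NK cell genes, ordered by role with lines between the roles, in 6 comparisons. Red stands for higher and blue for lower in the first group, colours end at -5 and 5, and a dot marks a call (absolute log2 fold change over 1, adjusted p under 0.05). Of the 26 genes, 18 and 15 carry a dot for Lipa-/- against WT mice at 12- and 34-weeks, 14 and 1 for treated against WT mice, and 5 and 4 for treated against Lipa-/- mice.

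The coreceptors Cd8a and Cd8b1 rose in Lipa-/- mice at both time points, and Cd4 was called at 34-weeks alone. Cd8a (GRCm39, chromosome 6, 71350411 to 71356157, plus strand) encodes the alpha chain of CD8, which is found on cytotoxic T cells and also on some dendritic cells. At 12-weeks, it had 0.268, 0.191 and 0.209 CPM in WT mice, 2.02, 3.15 and 3.07 CPM in Lipa-/- mice and 2.33, 2.01 and 1.76 CPM in treated mice. The 34-week livers had 0.118, 0.434 and 0.311 CPM in WT mice, 3.75, 3.86 and 2.54 CPM in Lipa-/- mice and 1.14, 1.15 and 3.00 CPM in treated mice. At both time points, the 3 WT mice lay below all 6 others. On the log2 scale, Lipa-/- mice exceeded WT mice by 3.59 ± 0.49 (SE, edgeR adjusted p = 2.58e-05) at 12-weeks and 3.48 (edgeR adjusted p = 1.56e-05) at 34-weeks, and treated mice exceeded WT mice by 3.16 (edgeR adjusted p = 0.00171) and 2.55 (edgeR adjusted p = 0.0309). The last of these was lost without WT mouse 1, 2 or 3 or treated mouse 12 (adjusted p up to 0.207), and also with total counts, with length offsets and with the compared groups alone. Between treated and Lipa-/- mice it was -0.43 (edgeR adjusted p = 0.382) at 12-weeks and -0.93 (edgeR adjusted p = 0.0746) at 34-weeks.

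Cd8b1, the beta chain that T cells pair with Cd8a, lies 35324 bp from Cd8a on chromosome 6. It had 0, 0.144 and 0.0523 CPM in WT mice, 0.816, 1.86 and 2.14 CPM in Lipa-/- mice and 0.291, 0.815 and 0.690 CPM in treated mice at 12-weeks. Its 34-week levels were 0.118, 0.355 and 0.156 CPM in WT mice, 2.90, 2.67 and 2.39 CPM in Lipa-/- mice and 0.366, 0.765 and 1.17 CPM in treated mice. The 3 groups did not overlap at either time point, with treated mice between WT and Lipa-/- mice. Against WT mice, the log2 fold change was 4.46 (edgeR adjusted p = 0.000154) in Lipa-/- and 3.09 (edgeR adjusted p = 0.00918) in treated mice at 12-weeks, and 3.59 (edgeR adjusted p = 0.000175) and 1.81 (edgeR adjusted p = 0.586) at 34-weeks. In treated against Lipa-/- mice, Cd8b1 fell at 34-weeks with a log2 fold change of -1.78 (edgeR adjusted p = 0.0159), a call that was lost without treated mouse 9 (adjusted p up to 0.0718), and the value at 12-weeks was -1.37 (edgeR adjusted p = 0.0554).

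Cd4 (chromosome 6, 124841655 to 124874758, minus strand), the coreceptor of helper T cells, is also made by some macrophages and dendritic cells, and gave another pattern. At 12-weeks, it had 3.86, 3.68 and 2.09 CPM in WT mice, 2.63, 3.61 and 0.929 CPM in Lipa-/- mice and 2.43, 1.25 and 2.84 CPM in treated mice, and the groups overlapped. At 34-weeks, the levels were 0.708, 1.22 and 0.545 CPM in WT mice, 3.18, 5.60 and 0.515 CPM in Lipa-/- mice and 4.27, 4.32 and 2.30 CPM in treated mice. Here the treated mice lay above all WT mice, whereas Lipa-/- mouse 6 lay below them. Lipa-/- against WT mice gave -0.43 (edgeR adjusted p = 0.626) at 12-weeks and 1.89 (edgeR adjusted p = 0.0265) at 34-weeks, the latter lost without WT mouse 1 or 3 or Lipa-/- mouse 4 or 5 (adjusted p up to 0.183). Treated against WT mice gave -0.58 (edgeR adjusted p = 0.492) and 2.12 (edgeR adjusted p = 0.481). The WT mice of 34-weeks lay below those of 12-weeks, with a log2 fold change of -1.95 (edgeR adjusted p = 0.348).

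The chains of the T cell receptor complex had few reads each, with 228 (Cd247) to 471 (Cd3g) over all 18 mice. Cd3e (chromosome 9, 44910037 to 44920925, minus strand), a signalling chain shared by all T cell receptors, had 0.107, 0.383 and 0.157 CPM in WT mice, 0.639, 0.971 and 0.647 CPM in Lipa-/- mice and 0.194, 0.435 and 0.537 CPM in treated mice at 12-weeks. The 34-week livers had 0.0590, 0.552 and 0.389 CPM in WT mice, 1.10, 1.82 and 0.515 CPM in Lipa-/- mice and 0.813, 0.929 and 1.60 CPM in treated mice. At 12-weeks, Lipa-/- mice lay above both other groups, and at 34-weeks treated mice lay above WT mice while Lipa-/- mouse 6 fell within their range. Lipa-/- mice were above WT mice by 1.76 (edgeR adjusted p = 0.049) at 12-weeks and 1.71 (edgeR adjusted p = 0.0342) at 34-weeks on the log2 scale, and treated mice by 0.85 (edgeR adjusted p = 0.372) and 1.67 (edgeR adjusted p = 0.672).

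Cd3d, the delta chain, differed from Cd3e in the treated mice. It had 0.482, 0.622 and 0.105 CPM in WT mice, 0.674, 1.71 and 1.33 CPM in Lipa-/- mice and 5.93, 3.42 and 1.15 CPM in treated mice at 12-weeks. Treated mouse 10 was far above the other livers, and the treated mice as a group overlapped the Lipa-/- mice but not the WT mice. In treated mice, Cd3d exceeded the WT level by 3.08 ± 0.87 (SE, edgeR adjusted p = 0.0143) on the log2 scale, lost without treated mouse 10 or WT mouse 3 (adjusted p up to 0.0758), and the value of Lipa-/- mice was 1.60 (edgeR adjusted p = 0.154). At 34-weeks, Cd3d ranged from 0.0779 to 0.906 CPM in WT, 1.03 to 1.58 CPM in Lipa-/- and 0.109 to 1.48 CPM in treated mice. Cd3g gave 1.70 in Lipa-/- and 1.70 in treated mice against WT mice at 12-weeks, and Cd247 (CD3 zeta, also used by NK cells) gave 1.60 and 1.49. All 4 of these passed (edgeR adjusted p = 0.0159, 0.0224, 0.0148 and 0.0303). With 1 mouse left out, each of the chains lost a call. The 12-week call in Lipa-/- mice was lost for Cd3e without WT mouse 1 or 3 or Lipa-/- mouse 8, 9 or 5 (adjusted p up to 0.162) and with length offsets or no read minimum, for Cd3g without WT mouse 1 or 3 or Lipa-/- mouse 8 (adjusted p up to 0.0742) and for Cd247 without WT mouse 3 or Lipa-/- mouse 8 (adjusted p up to 0.0602). The 34-week call of Cd3e was lost without WT mouse 1 or 3 or Lipa-/- mouse 4 or 5 (adjusted p up to 0.167). In treated mice of 12-weeks, Cd3g was lost without WT mouse 1 or 3 or treated mouse 10 or 11 (adjusted p up to 0.101) and Cd247 without WT mouse 1, 2 or 3 or treated mouse 10 or 11 (adjusted p up to 0.145). At 34-weeks, the 4 chains had log2 fold changes of 0.29 (Cd3d) to 1.67 (Cd3e) between treated and WT mice, and 0 of them was called.

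Cd28 (chromosome 1, 60755959 to 60812518, plus strand), the costimulatory receptor that T cells need for full activation, had the largest contrast among the accessory receptors. Its level was 0, 0.0479 and 0.105 CPM in WT mice, 1.92, 1.67 and 3.03 CPM in Lipa-/- mice and 0.389, 0.272 and 0.153 CPM in treated mice at 12-weeks. The 34-week livers had 0.177, 0.197 and 0 CPM in WT mice, 3.53, 2.71 and 2.50 CPM in Lipa-/- mice and 0.203, 0.492 and 0.233 CPM in treated mice. Every Lipa-/- liver was above every other liver of its time point, and the treated mice lay above the WT mice but by far less. At 12-weeks, 172 reads in Lipa-/- mice stood against 3 in WT mice, a ratio of 42.7 (95% counting interval 14.4 to 209, edgeR adjusted p = 5.16e-05). As WT mouse 3 held 2 of these 3 reads, the ratio was 86.5 without it. At 34-weeks, Lipa-/- mice exceeded WT mice by 4.54 ± 0.69 (SE, edgeR adjusted p = 4.79e-05) on the log2 scale. In treated against Lipa-/- mice, Cd28 fell with log2 fold changes of -3.02 (edgeR adjusted p = 0.00121) at 12-weeks and -3.25 (edgeR adjusted p = 0.000477) at 34-weeks. The ratio to WT mice at 12-weeks rested on 11 against 3 reads and was 5.15 (95% counting interval 1.36 to 28.8, edgeR adjusted p = 0.0625). All 4 calls of Cd28 held in each of the 13 alternative fits of its comparison, that is with every mouse left out and with every other tool, scaling, filter and threshold tried.

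Cd2, an adhesion receptor of T and NK cells, followed another course. It had 0.482, 0.335 and 0.105 CPM in WT mice, 1.38, 2.02 and 1.58 CPM in Lipa-/- mice and 1.26, 2.50 and 1.30 CPM in treated mice at 12-weeks, with WT mice below all others. Lipa-/- mice were above WT mice by 2.41 (edgeR adjusted p = 0.00289) and treated mice by 2.46 (edgeR adjusted p = 0.00697) on the log2 scale, and treated and Lipa-/- mice differed by 0.04. At 34-weeks, these values were 1.23 (edgeR adjusted p = 0.0617) and 0.26 (edgeR adjusted p = 0.984). Cd5, which dampens receptor signalling, had 43 reads in Lipa-/- against 3 in WT mice of 12-weeks, a ratio of 10.7 (95% counting interval 3.42 to 53.9, edgeR adjusted p = 0.0152). The ratio was 5.91 without Lipa-/- mouse 8, which held 27 of the 43 reads, and its call was lost without WT mouse 1 or 3 or Lipa-/- mouse 8 (adjusted p up to 0.0855). Its relative Cd6 had log2 fold changes of 1.92 (edgeR adjusted p = 0.128) at 12-weeks and 2.06 (edgeR adjusted p = 0.0492) at 34-weeks in Lipa-/- mice, the latter lost without WT mouse 1 or 3 or Lipa-/- mouse 4 or 5 (adjusted p up to 0.199).

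**Figure D2:**
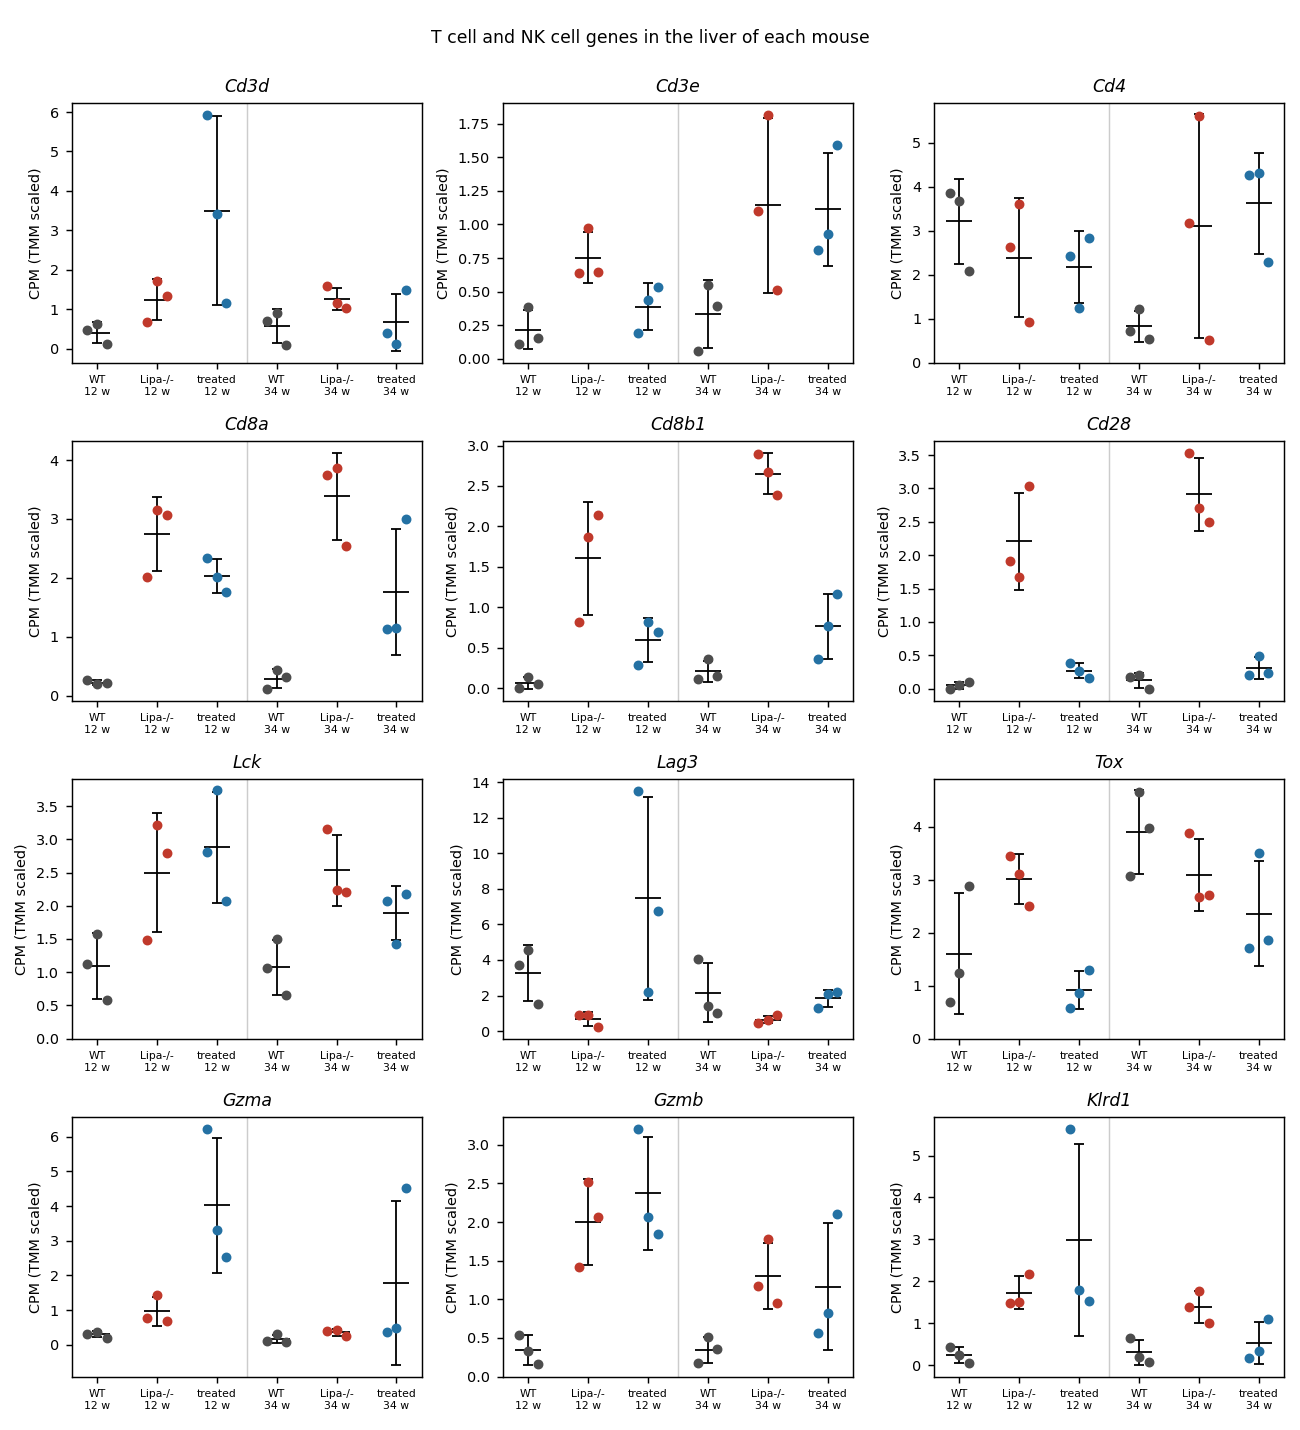
Levels of 12 T cell and NK cell genes in each of the 18 livers, in CPM scaled by TMM factors (linear axes, 1 panel per gene). Points are single mice in the order of their numbers, and bars show the mean and SD of 3 mice for WT, Lipa-/- and treated mice at 12 and 34 weeks (w). For Cd28, Lipa-/- mice lie between 1.67 and 3.53 CPM and all other mice at or below 0.492 CPM, whereas for Gzma the treated mice of 12-weeks lie between 2.53 and 6.22 CPM, above the Lipa-/- mice.

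Among the signalling proteins, Lat rose and Zap70 fell in Lipa-/- mice. Lat, the adaptor, had 0.482, 0.383 and 0.262 CPM in WT mice, 1.28, 1.75 and 0.970 CPM in Lipa-/- mice and 1.07, 1.36 and 0.997 CPM in treated mice at 12-weeks. Its 34-week levels were 0.885, 1.18 and 0.584 CPM in WT mice, 2.90, 2.28 and 1.73 CPM in Lipa-/- mice and 1.38, 1.31 and 1.32 CPM in treated mice. WT mice lay below both other groups at each time point. Lat was higher in Lipa-/- mice by 1.81 (edgeR adjusted p = 0.00167) and 1.38 (edgeR adjusted p = 0.00502) and in treated mice of 12-weeks by 1.60 (edgeR adjusted p = 0.00942) on the log2 scale, and the last call was lost without WT mouse 3 (adjusted p up to 0.0526). Lck, the kinase that starts the signal, had 1.13, 1.58 and 0.576 CPM in WT mice, 1.49, 3.22 and 2.79 CPM in Lipa-/- mice and 2.82, 3.75 and 2.07 CPM in treated mice at 12-weeks. Treated mice lay above all WT mice, whereas WT mouse 2 lay above Lipa-/- mouse 5. Its log2 fold changes were 1.18 (edgeR adjusted p = 0.033) and 1.24 (edgeR adjusted p = 0.0215) in Lipa-/- mice and 1.39 (edgeR adjusted p = 0.0194) in treated mice of 12-weeks. The authors' mean effective length of Lck, over which reads are spread among transcripts, was 764 and 747 bases in WT mice 2 and 3 of 12-weeks and 1881 bases in WT mouse 1, but 1708 to 1848 bases in Lipa-/- and 1832 to 1879 bases in treated mice. With offsets for this length, the fold changes at 12-weeks dropped to 0.32 in Lipa-/- and 0.42 in treated mice, and neither was called, nor was either called by DESeq2. The 12-week calls of Lck were also lost without WT mouse 1 or 3 or Lipa-/- mouse 8 or 9 (adjusted p up to 0.137) in Lipa-/- mice and without WT mouse 1 or 3 or treated mouse 10 or 11 (adjusted p up to 0.0932) in treated mice, and the 34-week call without WT mouse 1 or 3 or Lipa-/- mouse 4 (adjusted p up to 0.098).

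Zap70 (GRCm39, chromosome 1, 36800837 to 36821905, plus strand), the kinase that binds the phosphorylated CD3 chains, was the member with the most reads, 5837 of them over the 18 mice. It had 15.3, 16.2 and 13.8 CPM in WT mice, 4.65, 4.70 and 2.71 CPM in Lipa-/- mice and 60.4, 36.1 and 36.6 CPM in treated mice at 12-weeks. At 34-weeks, the levels were 41.9, 15.4 and 12.5 CPM in WT mice, 1.48, 0.927 and 2.06 CPM in Lipa-/- mice and 8.74, 17.4 and 30.3 CPM in treated mice. Lipa-/- mice lay below all other mice at both time points, opposite in direction to Lck and Lat, and treated mice of 12-weeks lay above all WT mice. Zap70 fell in Lipa-/- mice, with log2 fold changes of -1.91 ± 0.47 (SE, edgeR adjusted p = 0.00421) at 12-weeks and -3.95 ± 0.52 (SE, edgeR adjusted p = 1.21e-05) at 34-weeks. Treated mice were above Lipa-/- mice by 3.46 (edgeR adjusted p = 4.54e-05) and 3.65 (edgeR adjusted p = 3.23e-05). These 4 calls held in each of the 13 alternative fits of their comparisons. Against WT mice, treated mice gave 1.55 (edgeR adjusted p = 0.0171) at 12-weeks, lost without treated mouse 10 or WT mouse 3 (adjusted p up to 0.0981), and -0.30 (edgeR adjusted p = 0.977) at 34-weeks.

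On the TPM scale, which corrects for length, Zap70 stood apart from the other members in WT liver. Its mean was 11.5 ± 0.451 TPM in WT mice of 12-weeks (SD, n = 3), followed by Lag3 with 1.51 ± 0.593, Cd4 with 0.934 ± 0.212 and Lck with 0.930 ± 0.535 TPM, whose ranges overlapped one another. In Lipa-/- mice of 12-weeks, the highest means were those of Nkg7 (6.39 ± 1.89 TPM), Zap70 (4.02 ± 1.01 TPM) and Klrd1 (3.36 ± 0.931 TPM, SD, n = 3 each). In treated mice of 12-weeks, Zap70 led again with 21.0 ± 3.70 TPM, followed by Gzma with 3.28 ± 1.17 TPM.

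For each gene and mouse, the authors' quantification also gives an effective length, averaged over the transcripts to which the reads were assigned. The annotation (GENCODE vM39) lists 8 transcripts, among them the canonical one of 13 exons and 2293 bases and Zap70-204, a transcript with retained intron of 6 exons and 1338 bases. The effective length of Zap70 was 1093 to 1137 bases in WT mice of 12-weeks and 1112 to 1140 bases in WT mice of 34-weeks. From Gzmb, a gene with 1 transcript, the effective length expected in WT mouse 1 of 12-weeks was 1108 bases for Zap70-204 and 2063 bases for the canonical transcript, and the measured one was 1123 bases. In Lipa-/- mice, the length was 1127 to 1195 bases at 12-weeks, which overlapped WT mice, and 1233 to 1452 bases at 34-weeks, above all WT and all treated mice (1130 to 1160 bases). The genes Gm68749 and Gm18828 overlap Zap70 on the opposite strand, the strand of the library is not given in the sources used here, and the annotation is newer than that of the authors. Whether the reads counted for Zap70 come from T cells was not tested.

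**Figure D3:**
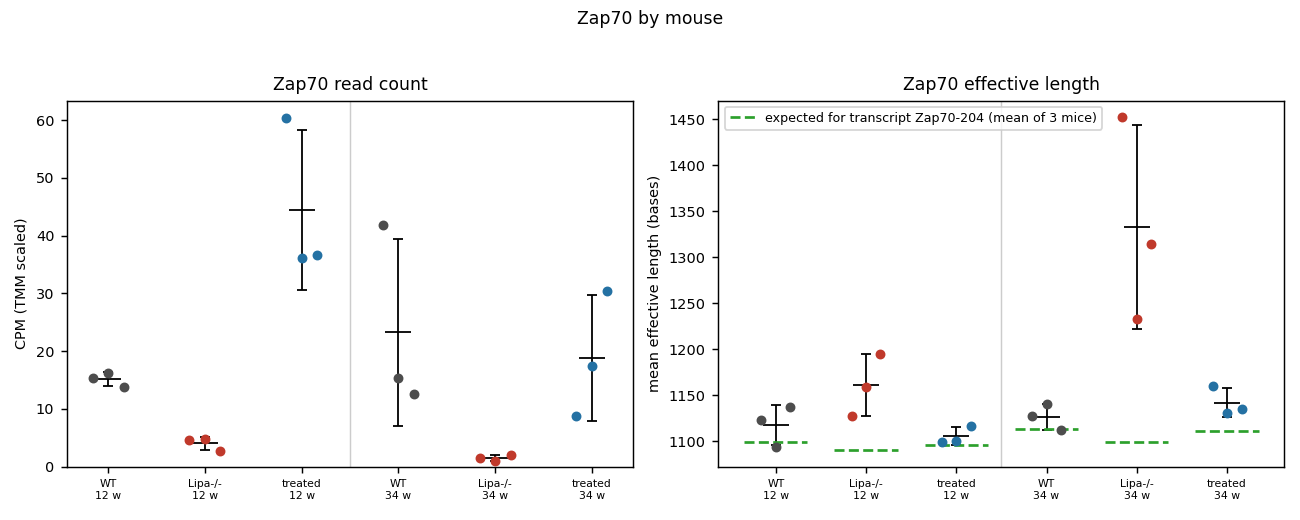
Zap70 in each of the 18 livers. Left, CPM scaled by TMM factors, and right, the mean effective length in bases (axis not from 0), with points for single mice, bars for the mean and SD of 3 mice, and a dashed line for the length expected for transcript Zap70-204. Lipa-/- mice lie lowest on the left (0.927 to 4.70 CPM), and at 34-weeks they lie highest on the right (1233 to 1452 bases).

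The stretches just before the canonical transcripts of 4 of these genes are shown as examples. Cd28, Gzmb and Lck were called higher and Zap70 was called lower in Lipa-/- mice at both time points. Other members with calls at both time points are not shown, so the 4 do not stand for all of them. Each is the 200 bases before the start of the canonical transcript, in the direction of transcription, read from GRCm39 with GENCODE vM39. For Cd28, that start lies within the annotated gene (60755959 to 60812518), so its window is inside the gene and not upstream of it. Capitals mark matches on either strand to the core letters of RUNX (TGTGGT), T-box (GGTGTGA) and ETS (AGGAAG) factors.
Cd28, chr1:60785317-60785516, plus strand: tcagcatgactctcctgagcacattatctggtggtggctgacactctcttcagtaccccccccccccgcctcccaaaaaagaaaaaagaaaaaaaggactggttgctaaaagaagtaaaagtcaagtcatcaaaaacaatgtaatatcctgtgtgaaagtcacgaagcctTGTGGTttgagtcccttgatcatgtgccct
Gzmb, chr14:56499718-56499917, minus strand: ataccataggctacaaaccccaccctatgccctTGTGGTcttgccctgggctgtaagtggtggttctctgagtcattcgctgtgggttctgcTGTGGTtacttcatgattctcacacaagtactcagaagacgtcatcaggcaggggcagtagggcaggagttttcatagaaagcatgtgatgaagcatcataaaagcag
Lck, chr4:129467435-129467634, minus strand: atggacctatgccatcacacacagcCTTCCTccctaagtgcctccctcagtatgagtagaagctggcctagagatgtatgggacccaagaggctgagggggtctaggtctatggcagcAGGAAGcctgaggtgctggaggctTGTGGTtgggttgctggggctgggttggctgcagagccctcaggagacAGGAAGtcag
Zap70, chr1:36800637-36800836, plus strand: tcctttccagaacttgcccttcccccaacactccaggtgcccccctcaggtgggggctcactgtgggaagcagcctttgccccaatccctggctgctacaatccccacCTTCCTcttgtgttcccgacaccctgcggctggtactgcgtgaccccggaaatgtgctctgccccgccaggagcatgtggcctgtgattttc
The RUNX letters occur once in Cd28 and in Lck and in 2 places in Gzmb, and not in Zap70. Of the other genes called in Lipa-/- mice at both time points, Lat, Nkg7 and Klrd1 held the RUNX letters. Cd3e, Cd8a, Cd8b1 and Gzmk, which rose, and Lag3, which fell, did not. The ETS letters occur in 3 places in Lck and once in Zap70. Over the 32 genes, 12 held the RUNX letters in this window, 15 the ETS letters and 1 (Gzmk) the T-box letters, and among the same windows of 21770 genes the shares were 10.5%, 24.3% and 2.58%. No 2 of the 3 sets of letters contain each other. A match is a description of the letters and not of a bound site.

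The checkpoint receptor Lag3 fell in Lipa-/- mice, in which most other members rose. Lag3 (chromosome 6, 124881320 to 124888765, minus strand), an inhibitory receptor of activated T cells that is also found on NK cells and plasmacytoid dendritic cells, lies 6562 bp from Cd4 on the same strand of chromosome 6. It had 3.70, 4.55 and 1.52 CPM in WT mice, 0.923, 0.893 and 0.242 CPM in Lipa-/- mice and 13.5, 2.17 and 6.75 CPM in treated mice at 12-weeks. The 34-week livers had 4.07, 1.42 and 1.01 CPM in WT mice, 0.441, 0.618 and 0.882 CPM in Lipa-/- mice and 1.30, 2.08 and 2.18 CPM in treated mice. Lipa-/- mice lay below both other groups at each time point. Lag3 fell in Lipa-/- mice with log2 fold changes of -2.23 (edgeR adjusted p = 0.0145) and -1.72 (edgeR adjusted p = 0.046), calls that were lost without WT mouse 2 or Lipa-/- mouse 9 (adjusted p up to 0.061) at 12-weeks and without WT mouse 1 or Lipa-/- mouse 4, 5 or 6 (adjusted p up to 0.304) at 34-weeks. Without WT mouse 1, the value at 34-weeks was -0.91, and the call at 34-weeks was also lost with RLE size factors and with total counts. Treated mice were above Lipa-/- mice by 3.41 (edgeR adjusted p = 0.000736) at 12-weeks, which held in all 13 alternative fits, and had a difference of 1.51 (edgeR adjusted p = 0.0838) at 34-weeks. Against WT mice, they gave 1.18 (edgeR adjusted p = 0.144) and -0.20 (edgeR adjusted p = 0.992).

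Icos, a costimulatory receptor of activated and follicular helper T cells, had 159 reads in all and no call. Its log2 fold changes in Lipa-/- against WT mice were -0.91 (edgeR adjusted p = 0.371) and -1.43 (edgeR adjusted p = 0.113), and it lies 204568 bp downstream of Cd28 on chromosome 1, with Ctla4 between them. Ctla4, the inhibitory relative of Cd28, had 31 reads over the 18 mice. At 34-weeks, 18 reads in Lipa-/- stood against 1 in WT mice, a ratio of 14.4 with a 95% counting interval of 2.28 to 602. Of these 18 reads, 12 were in mouse 5 and 0 in mouse 6, so that the groups overlapped, and without mouse 5 the ratio was 6.93. Pdcd1, the checkpoint receptor PD-1, had no read in WT mice of 12-weeks and was at least 1.45-fold higher in Lipa-/- and at least 6.63-fold higher in treated mice. Lipa-/- mouse 9 held 9 of the 17 reads of its group, and without it the bound was 0.999. Of the 33 reads of the treated mice, 28 were in mouse 10, without which the bound was 1.10. Tigit, another inhibitory receptor, had 14 reads in Lipa-/- against 1 in WT mice of 12-weeks, a ratio of 10.4 with a counting interval of 1.59 to 441. Mouse 8 held 9 of the 14 reads and mouse 9 had 0, the groups overlapped, and without mouse 8 the ratio was 5.54. None of these 3 genes was tested in edgeR.

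Of the transcription factors, Eomes and Tbx21, which drive the cytotoxic program of CD8 T cells and NK cells, rose in Lipa-/- mice of 12-weeks. In these livers, Eomes had 0, 0 and 0 CPM in WT mice, 0.674, 0.854 and 0.283 CPM in Lipa-/- mice and 0.291, 0.109 and 0 CPM in treated mice. It was at least 3.93-fold higher in Lipa-/- mice, where WT mice had no read (edgeR adjusted p = 0.0033), and treated mice overlapped WT mice. Its 34-week levels were 0.0590, 0.315 and 0 CPM in WT mice, 0.536, 0.812 and 0.221 CPM in Lipa-/- mice and 0.244, 0.382 and 0.506 CPM in treated mice, and its log2 fold change in Lipa-/- mice was 1.97 (edgeR adjusted p = 0.094). Tbx21 (T-bet) gave 2.30 (edgeR adjusted p = 0.0226) at 12-weeks, lost without WT mouse 1, 2 or 3 or Lipa-/- mouse 9 (adjusted p up to 0.0671), and 1.24 (edgeR adjusted p = 0.14) at 34-weeks. Between treated and WT mice, Tbx21 stood at 0.95 (edgeR adjusted p = 0.391) and 0.47 (edgeR adjusted p = 0.978).

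Tox, which T cells need to develop and in exhaustion, had 0.697, 1.24 and 2.88 CPM in WT mice, 3.44, 3.11 and 2.51 CPM in Lipa-/- mice and 0.583, 0.869 and 1.30 CPM in treated mice at 12-weeks. At 34-weeks, the levels were 3.07, 4.65 and 3.97 CPM in WT mice, 3.88, 2.67 and 2.72 CPM in Lipa-/- mice and 1.71, 3.50 and 1.87 CPM in treated mice. At 12-weeks, treated mice lay below all Lipa-/- mice and overlapped WT mice, and at 34-weeks the 3 groups overlapped. In treated against Lipa-/- mice, Tox fell at 12-weeks with a log2 fold change of -1.70 (edgeR adjusted p = 0.00587), a call that held in all 13 alternative fits, and gave -0.40 (edgeR adjusted p = 0.48) at 34-weeks. Foxp3, the factor of regulatory T cells, had 56 reads in all, and 11 in Lipa-/- and 13 in treated mice against 3 in WT mice of 12-weeks, ratios of 2.73 (95% counting interval 0.722 to 15.3) and 6.09 (1.67 to 33.3). Of the 13 reads in treated mice, 11 were in mouse 11 and 0 in mouse 12, both groups overlapped WT mice, and without mouse 11 the second ratio was 1.68.

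The granzymes, proteases of the killing granule, fell into different patterns. Gzmb (chromosome 14, 56496295 to 56499717, minus strand) had 0.536, 0.335 and 0.157 CPM in WT mice, 1.42, 2.52 and 2.06 CPM in Lipa-/- mice and 3.21, 2.06 and 1.84 CPM in treated mice at 12-weeks. The 34-week livers had 0.177, 0.512 and 0.350 CPM in WT mice, 1.17, 1.78 and 0.956 CPM in Lipa-/- mice and 0.569, 0.819 and 2.10 CPM in treated mice. WT mice lay below all others at both time points. Gzmb was higher in Lipa-/- mice by 2.53 (edgeR adjusted p = 0.00196) and 1.85 (edgeR adjusted p = 0.011) and in treated mice of 12-weeks by 2.76 (edgeR adjusted p = 0.00434) on the log2 scale, and these 3 calls held in all 13 alternative fits. The value of treated mice at 34-weeks was 1.70 (edgeR adjusted p = 0.532).

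Gzma (chromosome 13, 113230355 to 113237524, minus strand), a further granzyme, is made by NK cells and cytotoxic T cells. It had 0.322, 0.383 and 0.209 CPM in WT mice, 0.781, 1.44 and 0.687 CPM in Lipa-/- mice and 6.22, 3.31 and 2.53 CPM in treated mice at 12-weeks. Its 34-week levels were 0.118, 0.315 and 0.0779 CPM in WT mice, 0.410, 0.425 and 0.257 CPM in Lipa-/- mice and 0.366, 0.492 and 4.51 CPM in treated mice. At 12-weeks, treated mice lay above Lipa-/- mice and these above WT mice, whereas at 34-weeks treated mouse 12, with 116 reads, was alone far above the rest. Treated mice of 12-weeks were above WT mice by 3.69 (edgeR adjusted p = 0.00568) and above Lipa-/- mice by 2.04 (edgeR adjusted p = 0.0273) on the log2 scale, the latter lost without treated mouse 10 or Lipa-/- mouse 9 or 5 (adjusted p up to 0.117). At 34-weeks, the difference from Lipa-/- mice was 2.29 (edgeR adjusted p = 0.0247), and without treated mouse 12, whose neutrophil markers also stood apart, it was 0.20 (edgeR adjusted p = 0.829). It was also lost without Lipa-/- mouse 4, 5 or 6, and scaled by total counts neither difference from Lipa-/- mice was called. Lipa-/- against WT mice gave 1.65 (edgeR adjusted p = 0.121) and 1.04 (edgeR adjusted p = 0.356).

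Gzmk, the granzyme of memory-type CD8 T cells, lies 70618 bp from Gzma on chromosome 13. It had no read in WT mice of 12-weeks and was at least 2.07-fold higher in Lipa-/- and at least 3.39-fold higher in treated mice (edgeR adjusted p = 0.00819 and 0.00775). Mouse 8 held 16 of the 25 reads in Lipa-/- mice, and without it that bound was 1.09. At 34-weeks, the ratio of Lipa-/- to WT mice was 9.09 with a 95% counting interval of 2.86 to 46.3 (edgeR adjusted p = 0.0233). Without WT mouse 3 the ratio was 5.66, and without WT mouse 2, which held all 3 WT reads, Lipa-/- mice were at least 2.73-fold higher, and the call was lost without WT mouse 1 or 3 or Lipa-/- mouse 4 or 5 (adjusted p up to 0.0848). Prf1, perforin, gave 1.54 (edgeR adjusted p = 0.0641) and 2.07 (edgeR adjusted p = 0.00865) in Lipa-/- mice, the latter lost without Lipa-/- mouse 4 (adjusted p up to 0.0551). Nkg7, a granule protein of NK and cytotoxic T cells, had 0.268, 1.15 and 0.105 CPM in WT mice, 2.31, 2.84 and 4.24 CPM in Lipa-/- mice and 2.82, 1.41 and 1.23 CPM in treated mice at 12-weeks, and Lipa-/- and treated mice lay above all WT mice. Its log2 fold changes were 2.59 (edgeR adjusted p = 0.00836) in Lipa-/- and 1.79 (edgeR adjusted p = 0.0629) in treated mice, and 2.06 (edgeR adjusted p = 0.023) in Lipa-/- mice of 34-weeks, lost without WT mouse 2 or 3 or Lipa-/- mouse 4 or 5 (adjusted p up to 0.0946). Ifng, the interferon gamma gene, had 30 reads over all 18 mice, at most 8 in one of them (Lipa-/- mouse 8 of 12-weeks). The ratio of Lipa-/- to WT mice of 12-weeks, from 9 against 1 reads, was 6.71 with a 95% counting interval of 0.930 to 294, so that a difference was not detectable at this depth.

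Of the NK receptors, Klrd1 (CD94, chromosome 6, 129568677 to 129575738, plus strand) pairs with NKG2 proteins to read MHC class I. It had 0.429, 0.239 and 0.0523 CPM in WT mice, 1.49, 1.51 and 2.18 CPM in Lipa-/- mice and 5.64, 1.79 and 1.53 CPM in treated mice at 12-weeks. At 34-weeks, the levels were 0.649, 0.197 and 0.0779 CPM in WT mice, 1.39, 1.78 and 0.992 CPM in Lipa-/- mice and 0.163, 0.328 and 1.09 CPM in treated mice. WT mice of 12-weeks lay below both other groups, and at 34-weeks Lipa-/- mice lay above WT mice while the treated mice overlapped both. Klrd1 was higher than in WT mice by 2.82 (edgeR adjusted p = 0.0104) in Lipa-/- and 3.59 (edgeR adjusted p = 0.00613) in treated mice of 12-weeks, and by 2.24 (edgeR adjusted p = 0.0261) in Lipa-/- mice of 34-weeks, the last lost without WT mouse 2 or 3 or Lipa-/- mouse 4 or 5 (adjusted p up to 0.106). Klrk1 (NKG2D), an activating receptor 11548 bp away on the opposite strand of chromosome 6, was called in treated mice of 12-weeks with 2.04 (edgeR adjusted p = 0.00983), lost without WT mouse 3 (adjusted p up to 0.0544), and stood at 1.28 (edgeR adjusted p = 0.0601) in Lipa-/- mice. The latter value was called under other settings, at 1.92 (edgeR adjusted p = 0.0179) with length offsets, 1.76 (edgeR adjusted p = 0.0154) with total counts, 1.53 (edgeR adjusted p = 0.0417) without Lipa-/- mouse 9 and 1.93 (adjusted p = 0.00419) in DESeq2. Ncr1 (NKp46), which marks NK cells and some innate lymphoid cells, had exactly 100 reads. At 12-weeks, the ratio to WT mice, which had 2 reads, was 13.8 (95% counting interval 3.56 to 118) in Lipa-/- and 14.1 (3.41 to 124) in treated mice, and at 34-weeks, against 1 read, it was 23.3 (3.86 to 950) and 10.9 (1.59 to 469). Without treated mouse 11 of 12-weeks, which held 14 of 20 reads, the ratio was 7.54, and without Lipa-/- mouse 5 of 34-weeks, which held 18 of 29 reads, it was 12.7.

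Between 12- and 34-weeks, 0 of the 26 genes was called in WT mice (4 with an unadjusted p under 0.05, 0 in DESeq2, and 0.323% of all genes called, or 0.0482% to 0.702% with a mouse left out) and 0 in Lipa-/- mice (2 unadjusted, 1 in DESeq2, 0.495% of all genes, or 0.0275% to 1.8% with a mouse left out). In treated mice, Tox rose by 1.33 (edgeR adjusted p = 0.0285) on the log2 scale, and Cd3d, Zap70, Lag3 and Klrd1 fell, with log2 fold changes of -2.34, -1.23, -2.0 and -2.45 (edgeR adjusted p = 0.0293, 0.0359, 0.0195 and 0.0144). Among all genes, 17.5% were called higher and 14.5% lower in this comparison. Scaled by total counts, 3 of the 26 were higher and 1 lower, against 34.4% and 4.76% of all genes, and the median over all genes moved to 0.71. The count of 5 became 9 without treated mouse 12 of 34-weeks, 1 without mouse 9 or mouse 11 of 34-weeks, 0 without mouse 10 and 3 without mouse 11 of 12-weeks. With the difference from WT mice itself compared between the time points, 0 of the 26 genes was called for Lipa-/- mice (3 with an unadjusted p under 0.05, 0 in DESeq2, 0.0619% of all genes called, or 0.0138% to 0.495% with a mouse left out). For treated mice, Cd4 was called higher with a difference of 2.70 ± 0.92 (SE, edgeR adjusted p = 0.0498), where 18.4% of all genes were called. This share of all genes turned on single mice, since it was 0.00688% without treated mouse 9 of 34-weeks, 8.59% without treated mouse 11 of 34-weeks, and 3.15% without treated mouse 10 of 12-weeks. Leaving out 1 of 3 WT mice also lowered it, to 0.0206% (mouse 3 of 12-weeks), 0.44% (mouse 1 of 12-weeks) or 1.18% (mouse 1 of 34-weeks), and the highest share was 23.7%, without treated mouse 12 of 34-weeks. With the compared groups alone it was 0.0413%. With RLE size factors, 0 were higher and 1 lower. The count of 1 became 5 without treated mouse 12 of 34-weeks, 2 without WT mouse 2 or WT mouse 3 of 34-weeks, and 0 when any other mouse of these groups but treated mouse 12 of 12-weeks was left out.

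Further genes linked to T and NK cells were read from 3 other lists. Several of these genes are made by other cells as well, so the lists do not follow T and NK cells alone. Among all genes, 20.2% were called higher and 9.06% lower in Lipa-/- against WT mice of 12-weeks, and 20.5% and 15.7% at 34-weeks. For treated against WT mice of 12-weeks, these shares were 13.6% and 12%. For treated against Lipa-/- mice, they were 16.2% and 25.3% at 12-weeks and 12.8% and 18.6% at 34-weeks. The counts of all lists that follow stand beside these shares. Of 26 tested genes (out of 30) that mark T cells or their states, 14 rose and 1 fell in Lipa-/- mice of 12-weeks against WT mice, and 10 rose and 2 fell at 34-weeks. The summed level of all 30 genes overlapped between these groups. It was 122.1 to 169.3 CPM in WT and 103.3 to 160.9 CPM in Lipa-/- mice at 12-weeks. At 34-weeks, WT mice had 104.9 to 136.7 CPM and Lipa-/- mice 104.2 to 123.4 CPM. Among the largest changes at 12-weeks were those of Il7r, the receptor for interleukin 7 on naive and memory T cells (log2 fold change 7.0, edgeR adjusted p = 2.55e-06) and Havcr2, the checkpoint receptor TIM-3 that myeloid cells also carry (log2 fold change 5.22, edgeR adjusted p = 2.33e-07). In treated mice of 12-weeks, 8 were higher and 1 lower than in WT mice, led by the T cell receptor beta constant genes Trbc1 (log2 fold change 3.42, edgeR adjusted p = 0.00209) and Trbc2 (log2 fold change 2.87, edgeR adjusted p = 0.00286), which are near copies of each other, so that the split of reads between them is uncertain, and by the chemokine receptor Cxcr6 of liver-resident lymphocytes (log2 fold change 2.50, edgeR adjusted p = 0.0157). Against Lipa-/- mice, 5 were higher and 8 lower at 12-weeks and 2 higher and 5 lower at 34-weeks, which was near or below the shares of all genes. Here Il7r (log2 fold change -4.65, edgeR adjusted p = 3.45e-05) and Havcr2 (log2 fold change -4.0, edgeR adjusted p = 2.78e-06) fell at 12-weeks and Itgae, the integrin of tissue-resident T cells, rose (log2 fold change 2.13, edgeR adjusted p = 0.0107).

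Of 19 tested NK and cytotoxic genes (out of 28), 13 rose and 1 fell in Lipa-/- mice of 12-weeks against WT mice, 8 rose and 1 fell at 34-weeks, and 11 higher and 0 lower in treated mice of 12-weeks. Slamf7, a receptor that macrophages and B cells carry as well (log2 fold change 6.84, edgeR adjusted p = 8.9e-07), Itga2, an integrin of NK cells and platelets (log2 fold change 4.61, edgeR adjusted p = 0.000475), and the chemokine Ccl5 (log2 fold change 3.62, edgeR adjusted p = 6.78e-05) led at 12-weeks. S1pr5, which NK cells use to leave tissue, fell in Lipa-/- mice of 34-weeks (log2 fold change -2.90, edgeR adjusted p = 0.000238) and rose in treated against Lipa-/- mice (log2 fold change 2.71, edgeR adjusted p = 0.000529). Against Lipa-/- mice, 2 of the list were higher and 7 lower at 12-weeks, and 2 higher and 6 lower at 34-weeks. Of 24 tested genes (out of 28) of T cell receptor signalling, 13 rose and 1 fell in Lipa-/- mice of 12-weeks, 12 rose and 1 fell at 34-weeks, and 8 higher and 2 lower in treated mice of 12-weeks. In treated against Lipa-/- mice, 0 of these 24 were higher and 11 lower at 12-weeks, and 0 higher and 8 lower at 34-weeks. Vav1 (log2 fold change 4.50, edgeR adjusted p = 9.5e-07) and Nfatc2 (log2 fold change 4.15, edgeR adjusted p = 0.00167), which pass on receptor signals in several kinds of leukocyte, were among the largest changes in Lipa-/- mice of 12-weeks. The summed levels of the NK and receptor signalling lists were higher in each Lipa-/- liver than in every WT liver of its time point. At 34-weeks, 0 of the genes in these 3 lists was called between treated and WT mice, where 0.22% of all genes were called.

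Many markers of other leukocytes rose with these genes in Lipa-/- mice, whereas the sums of hepatocyte and endothelial markers were lower than in WT mice. In treated against Lipa-/- mice, most pan-leukocyte genes were called lower with TMM factors, whereas few of the T and NK cell genes were. All 10 pan-leukocyte genes rose in Lipa-/- mice at each time point, with sums of 30.2 to 51.6 CPM in WT, 644 to 1053 CPM in Lipa-/- and 106 to 178 CPM in treated mice of 12-weeks, and 50.3 to 92.7, 608 to 810 and 67.5 to 182 CPM at 34-weeks. In treated against Lipa-/- mice, 9 of these 10 were lower at 12-weeks and 10 of 10 at 34-weeks, beside 2 of the 26 T and NK cell genes each time. Of 12 macrophage genes, 9 were higher and 1 lower in Lipa-/- mice at 12-weeks, with sums of 177 to 403 CPM in WT, 1080 to 2102 CPM in Lipa-/- and 685 to 842 CPM in treated mice. The 10 dendritic cell genes summed to 5.50 to 7.13, 37.5 to 80.5 and 9.97 to 16.5 CPM in these groups, with 5 higher in Lipa-/- mice and 2 lower in treated than in Lipa-/- mice. Their part in the values of Cd4, Cd8a, Lag3, Havcr2 and Slamf7, which such cells can also make, was not tested.

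Of 8 tested B and plasma cell genes, 3 rose in Lipa-/- and 4 in treated mice of 12-weeks against WT mice, and 2 were higher and 0 lower in treated than in Lipa-/- mice. Their sums at 12-weeks were 2.98 to 5.46 CPM in WT, 15.3 to 61.1 CPM in Lipa-/- and 17.9 to 39.0 CPM in treated mice. The neutrophil genes, of which Ngp, Camp, Ly6g and Mpo had no read in WT mice of 12-weeks, were higher in 10 of 10 cases in Lipa-/- mice at 12-weeks and 8 of 10 at 34-weeks. Their sums at 12-weeks were 1.52 to 3.21 CPM in WT, 132 to 1682 CPM in Lipa-/- (the highest in mouse 9) and 8.13 to 68.1 CPM in treated mice, of which 8 of 10 genes were lower than in Lipa-/- mice. Platelet genes summed to 2.15 to 3.48, 11.1 to 13.4 and 5.44 to 9.56 CPM, and mast cell genes to at most 1.13 CPM at 12-weeks, and in treated mouse 12 of 34-weeks they reached 33.2 and 6.42 CPM. Hepatocyte genes were lower in 4 of 9 cases in Lipa-/- mice at 12-weeks and in 6 of 9 at 34-weeks. The 6 endothelial genes summed to 113 to 158 CPM in WT, 65.4 to 73.7 CPM in Lipa-/- and 119 to 185 CPM in treated mice of 12-weeks.

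**Figure D4:**
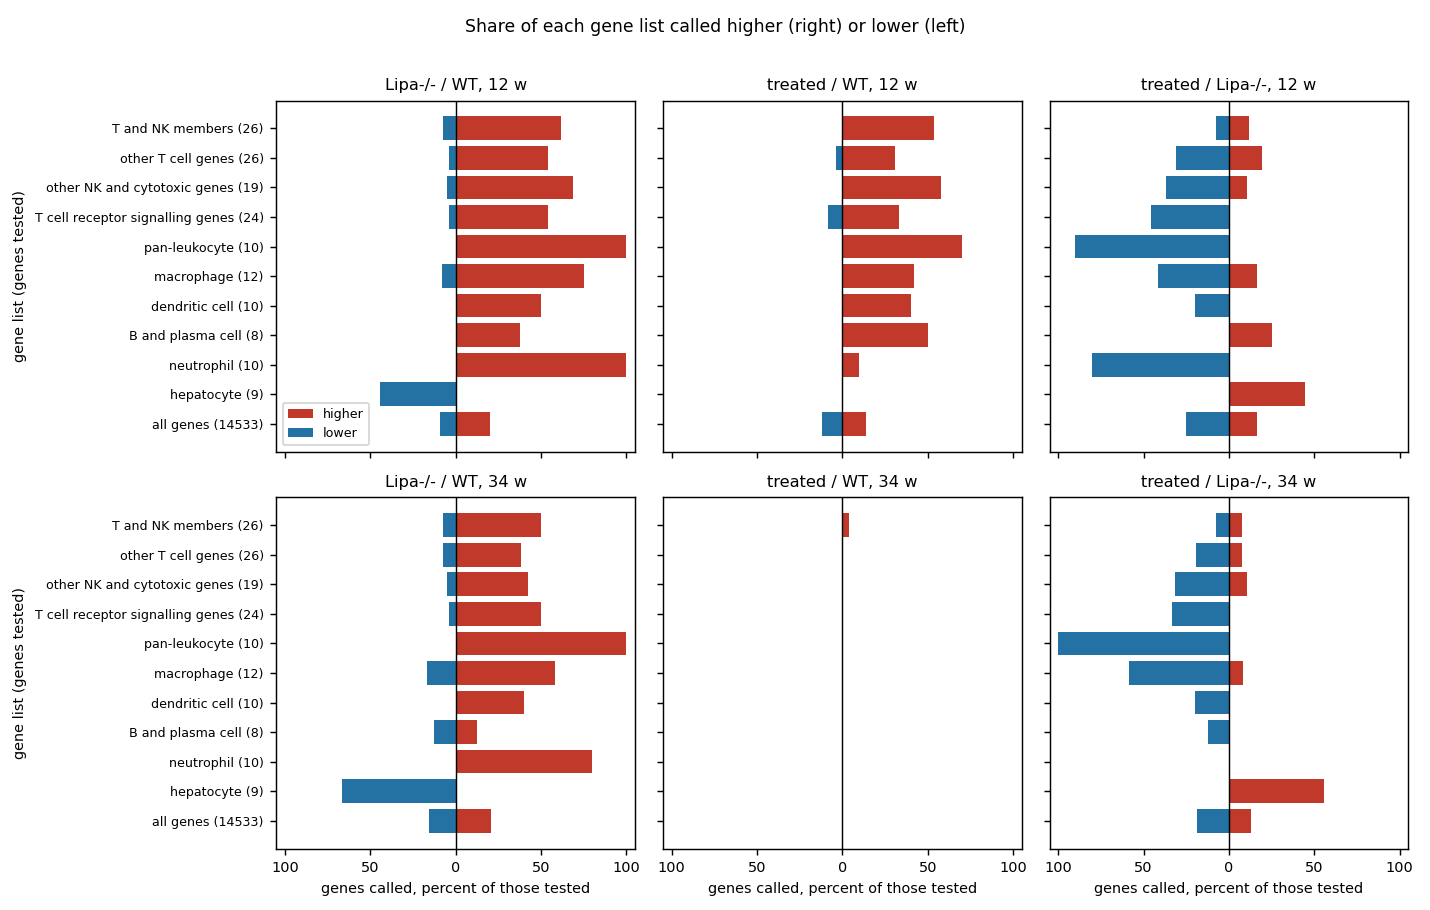
Share of each gene list called higher (red, to the right) or lower (blue, to the left) in 6 comparisons, in percent of the genes tested, whose number stands beside each list, with all tested genes in the lowest row. In treated against Lipa-/- mice, 9 and 10 of the 10 pan-leukocyte genes are lower at 12 and 34 weeks (w), and 2 of the 26 T and NK cell genes at each. Calls use TMM factors, and the pan-leukocyte genes sum to far higher levels, at which a fall is easier to call.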

How the data were processed

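Per the study's methods, the authors assigned paired-end reads of liver RNA to GRCm39 cDNA with Salmon and summed them to gene symbols with tximport, without pooling mice. The authors deposited estimated counts per gene, which are not scaled for library size and were rounded to whole numbers here. The deposited TPM values correct these for length and library size and were used for levels between genes, and the authors' effective gene lengths are in bases. A table of the authors' own comparisons (DESeq2 1.40.1 in R 4.3.0), with log2 fold changes and p-values, was not used.

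Genes with more than 100 reads over the 18 mice were fitted with edgeR 4.0.16 in R 4.3.3, as 1 quasi-likelihood model with 6 group means and TMM factors, and p-values were adjusted by Benjamini-Hochberg over all 14533 genes tested. A call needed a log2 fold change beyond 1 in either direction and an adjusted p under 0.05, the read minimum and thresholds of the study. The standard error is the log2 fold change divided by the square root of its F statistic. P-values measure the spread between mice. Scripts were tested on simulated counts. Counting intervals are at the 95% level and exact, under a binomial split of the reads of both groups.

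The 32 genes and the other lists were chosen with earlier results of these data known. All 32 are named, and from the 3 lists of other T cell, NK cell and receptor signalling genes up to 3 called genes per comparison with the largest change and at least 1 CPM on average. A few genes that this rule would name are not reported here. Positions, transcripts and upstream sequence come from GRCm39 with GENCODE vM39, which is newer than the annotation of the authors. Alternatives were RLE size factors, total counts, length offsets, no read minimum, the compared groups alone, DESeq2 1.42.0, the adjusted p alone, the mouse number as a replicate block, and leaving out each mouse.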

Additional observations from a re-analysis of the deposited data

Results flagged for a closer look

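Cd4 was the only gene of the 26 whose difference between treated and WT mice was itself called different between the time points. Its value was 2.70 ± 0.92 on the log2 scale (SE, edgeR adjusted p = 0.0498, 3 mice per group). Among all genes, 18.4% were called in this comparison, so such a call was not rare. All 3 treated mice lay above all 3 WT mice at 34-weeks (2.30 to 4.32 against 0.545 to 1.22 CPM), whereas at 12-weeks the groups overlapped (1.25 to 2.84 against 2.09 to 3.86 CPM). WT mice were lower at the later time point without overlap, whereas the ranges of treated mice overlapped. The called difference thus rests in part on lower WT levels and not on treated mice alone. The adjusted p was just under the threshold and ranged from 0.0191 to 0.116 over the 19 alternative fits, of which 8 kept the call. Macrophage genes summed to 297 to 551 CPM in WT and 329 to 810 CPM in treated mice of 34-weeks, and their part in the Cd4 values was not tested. The label prefix differs between the time points as well and cannot be told apart from them.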

How the results depend on the processing

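Among the 63 calls of single genes, 29 held in every alternative, and of their 830 alternative fits, 678 kept the call, 152 lost it with the same direction and 0 reversed. With 1 mouse left out at a time, the number of called genes ranged from 6 to 17 (Lipa-/- against WT mice, 34-weeks), 7 to 15 and 0 to 1 (treated against WT mice, 12- and 34-weeks), 0 to 9 (treated mice between the time points) and 0 to 5 (difference of treated from WT mice between the time points). In the same order, 31.8% to 36.8%, 11.2% to 29%, 0.0413% to 0.213%, 23.1% to 35.8% and 0.00688% to 23.7% of all genes were called. For treated against WT mice at 34-weeks, total counts, length offsets and the compared groups alone each left 0 calls, and DESeq2 made 2. Total counts raised the calls between treated and Lipa-/- mice to 11 at 12-weeks and 8 at 34-weeks, where 52.4% and 34.4% of all genes were called. DESeq2 made 1 call between the time points in Lipa-/- mice. In treated mice, the compared groups alone left 2 calls between the time points. The difference of treated from WT mice between the time points gave 2 calls without the read minimum, 0 with the compared groups alone and 4 with DESeq2. Fitting the compared groups alone also ended the calls of Cd3g and Lck in Lipa-/- mice of 12-weeks, of Cd3e, Cd4 and Cd6 in Lipa-/- mice of 34-weeks, and of Cd247, Cd3g, Lat and Lck in treated mice of 12-weeks, and total counts ended those of Cd247, Cd3g and Lck in the last. The causes were not tested.

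Without WT mouse 2 of 34-weeks, the highest of its group in most members, 5 uncalled log2 values changed sign. In WT mice between the time points, Cd6 was then -0.50 (up to 2.06 without another mouse), Gzmk 0 (up to 3.69) and Tbx21 -0.15 (up to 1.38), and in the difference of Lipa-/- from WT mice Gzmk was 0.33 (down to -3.37) and Tbx21 0.098 (down to -1.43).

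With the mouse number as a replicate block, 0 genes were called in treated mice between the time points, against 5 without it, and 0 in WT mice, as without it. The labels do not say that a number marks the same animal or litter, and the deviations of same-numbered WT mice correlated at 0.0763, -0.24 and 0.46, so the numbers were not taken as pairs.

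Most members had few reads, so that calls near the threshold turn on single mice. Lck and Klrk1 at 12-weeks depend on the length correction. DESeq2 gave no adjusted p for Gzmk in treated against WT mice of 12-weeks.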
